A study of Mus musculus with 6 samples.

Results

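The genes described here are the mouse translation initiation factors, taken as every gene symbol that starts with Eif and a digit and is listed in all 6 count files, with the Argonaute symbols of the Eif2c series left out. The rule gave 54 genes of 21786 symbols. It uses gene symbols and no measured value, but it was chosen with earlier results of these data known. Of the 54 genes, 52 were among the 15018 genes with enough reads to test. Polyadenylated RNA was sequenced from whole testes, as 3 libraries of Stra8-deficient (Stra8 -/-) males aged 1 year, whose testes were grossly enlarged, and 3 libraries of wild-type (Stra8 +/+) males aged 2 to 4 months. All 6 were of the C57BL/6 strain. Stra8 encodes a retinoic acid-induced protein that germ cells need to enter meiosis. Genotype, age and gross enlargement of the testis go together in these labels, so their parts in any difference cannot be told apart.

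Translation initiation brings the small ribosomal subunit to the 5′ end of an mRNA and sets it on a start codon. The cap-binding protein eIF4E, the scaffold eIF4G and the helicase eIF4A load the mRNA, eIF3 bridges it to the small subunit, and eIF2 carries the initiator tRNA as a complex with GTP. Supply is limited at a pair of well-known points, through eIF4E-binding proteins that the mTOR kinase switches off and through kinases that phosphorylate the alpha subunit of eIF2 and so block its exchange factor, eIF2B. Male germ cells rely heavily on translational control, because spermatids store mRNAs long before they use them.

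Gene reads per library numbered 7883466, 8561174 and 12425689 in the Stra8-deficient group, against 7910732, 8937224 and 6733128 in the wild-type group. Stra8 itself had 21.2, 23.7 and 18.1 CPM (reads of a gene per 1e6 reads of the library, scaled by edgeR's TMM factors) in Stra8-deficient libraries, against 18.7, 18.6 and 17.1 CPM in wild-type libraries. Its ranges overlapped, with a log2 fold change of 0.21 ± 0.21 (SE). The sources used here do not say which part of the gene the allele lacks, so this level checks no label. Summed CPM of 7 spermatid markers lay at 5.72 to 11.3 in Stra8-deficient libraries, against 20043 to 23245 in wild-type libraries, and all 7 fell, with Catsper1 at 0 reads in each Stra8-deficient library. The 6 pachytene spermatocyte markers summed to 49.7 to 60.1 CPM, against 9128 to 9783 CPM in wild type, and all 6 fell. The 7 markers of undifferentiated spermatogonia summed to 1117 to 1852 CPM, against 36.1 to 44.7 CPM, and all 7 rose. Of 5 Sertoli cell markers in the files 4 fell, with sums of 48.9 to 77.4 CPM in Stra8-deficient and 235 to 265 CPM in wild-type libraries. Of 5 macrophage markers 4 rose, with sums of 243 to 750 CPM against 79.6 to 89.2 CPM. None of 5 Leydig cell markers was called. Their sums were 306, 17 and 2539 CPM in the Stra8-deficient libraries, a wide spread, against 729 to 1228 CPM in wild type. Of 4 peritubular markers 1 fell, at sums of 44.3 to 245 CPM against 127 to 133 CPM, and the single blood marker of 5 that could be tested also fell, at sums of 1.54 to 10.7 CPM against 21.5 to 27.5 CPM, with all 4 globin genes of that list at 0 reads in the Stra8-deficient libraries and Hba-a1, Hba-a2 and Hbb-b2 at 0 in wild type too. Germ cell, Sertoli cell and macrophage markers thus moved with genotype beside the initiation factors. Their part in the results was not tested, and in whole testes a change in the number of cells of a type cannot be told apart from a change in RNA per cell.

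More initiation factor mRNAs rose than fell in the Stra8-deficient testes. Of 52 tested members, 29 were called higher, 9 lower and 14 were not called at an adjusted p of 0.05 (edgeR quasi-likelihood test, Benjamini-Hochberg over all tested genes). The 38 calls are 73.1% of the members, beside a background of 75.8% called among all 15018 genes, so a call was about as common as among all genes. The split by direction was 55.8% of members higher and 17.3% lower, beside 39.0% and 36.7% of all tested genes. The median log2 fold change was 0.96 over the members and 0.11 over all genes. Log2 fold changes of the members had an SD of 1.48, beside 3.32 for all genes, which were not matched to the members for expression level. They ran between -4.84 and 3.91 among the members and between -16.24 and 11.61 among all genes. The second span includes the members, so it cannot be the narrower of the pair. A fold of at least 2 was reached by 26 of the members called higher and 4 of those called lower (background among all genes 64.8%, of which 32.7% higher and 32.0% lower). Libraries of the genotypes did not overlap for 39 members, 28 above and 11 below wild type, where 80.2% of all genes did not overlap, 40.7% above and 39.4% below. Scaling bears on the direction: with library size alone in place of TMM, 35 members were higher and 4 lower, beside 50.3% and 28.8% of all genes (79.1% called). The share of higher calls was then 89.7% in place of 76.3% among members and 63.6% in place of 51.5% among all genes, and the median of all genes stood at 0.73. The member median was 0.85 above that of all genes, a difference that scaling cannot move, and it was 0.69 to 1.02 above with a library left out.

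**Figure D1:**
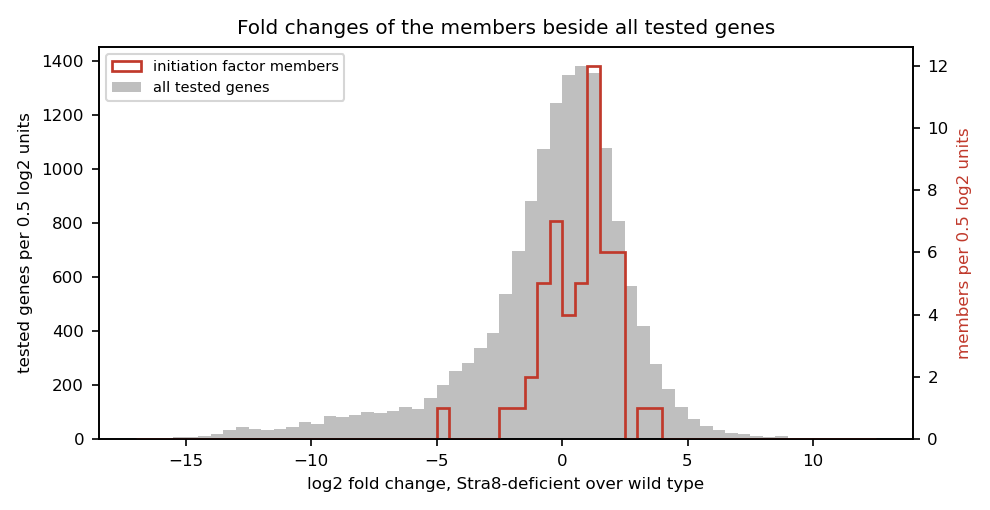
Log2 fold changes (Stra8-deficient over wild type, x axis) of the 52 tested members (red outline, right axis) and of all 15018 tested genes (grey, left axis), counted in bins of 0.5 log2 units. The members lie between -4.84 and 3.91 and their median of 0.96 is right of the median of 0.11 for all genes.

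As a share of all reads in the shared symbols, the 54 genes together took 1.04%, 1.07% and 1.16% in Stra8-deficient libraries, against 0.653%, 0.656% and 0.665% in wild-type libraries. Every Stra8-deficient library was above every wild-type library. The means were 1.09% ± 0.0622 for Stra8-deficient and 0.658% ± 0.00588 for wild-type libraries (SD, n = 3 each, two-sided exact permutation p = 0.1, the smallest that 3 against 3 allows). These shares use no TMM scaling. The TMM factors were 1.27, 1.23 and 1.21 for Stra8-deficient libraries, against 0.813, 0.796 and 0.813 for wild-type libraries. Dividing by them narrows the gap and puts the first Stra8-deficient library inside the wild-type range. Per kilobase of exon, the highest level in Stra8-deficient testes belonged to Eif3l, at 201 ± 38.1 RPKM (here TMM-scaled CPM per kilobase of exon), followed by Eif3b at 170 ± 12.7 and Eif3g at 145 ± 48.3 (SD, n = 3), and these neighbours do not separate beyond their spread. In wild-type testes the order of levels began with Eif3b at 213 ± 8.14, Eif1b at 152 ± 13.3 and Eif3c at 145 ± 9.49 RPKM, of which Eif1b and Eif3c lie within their spread.

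**Figure D2:**
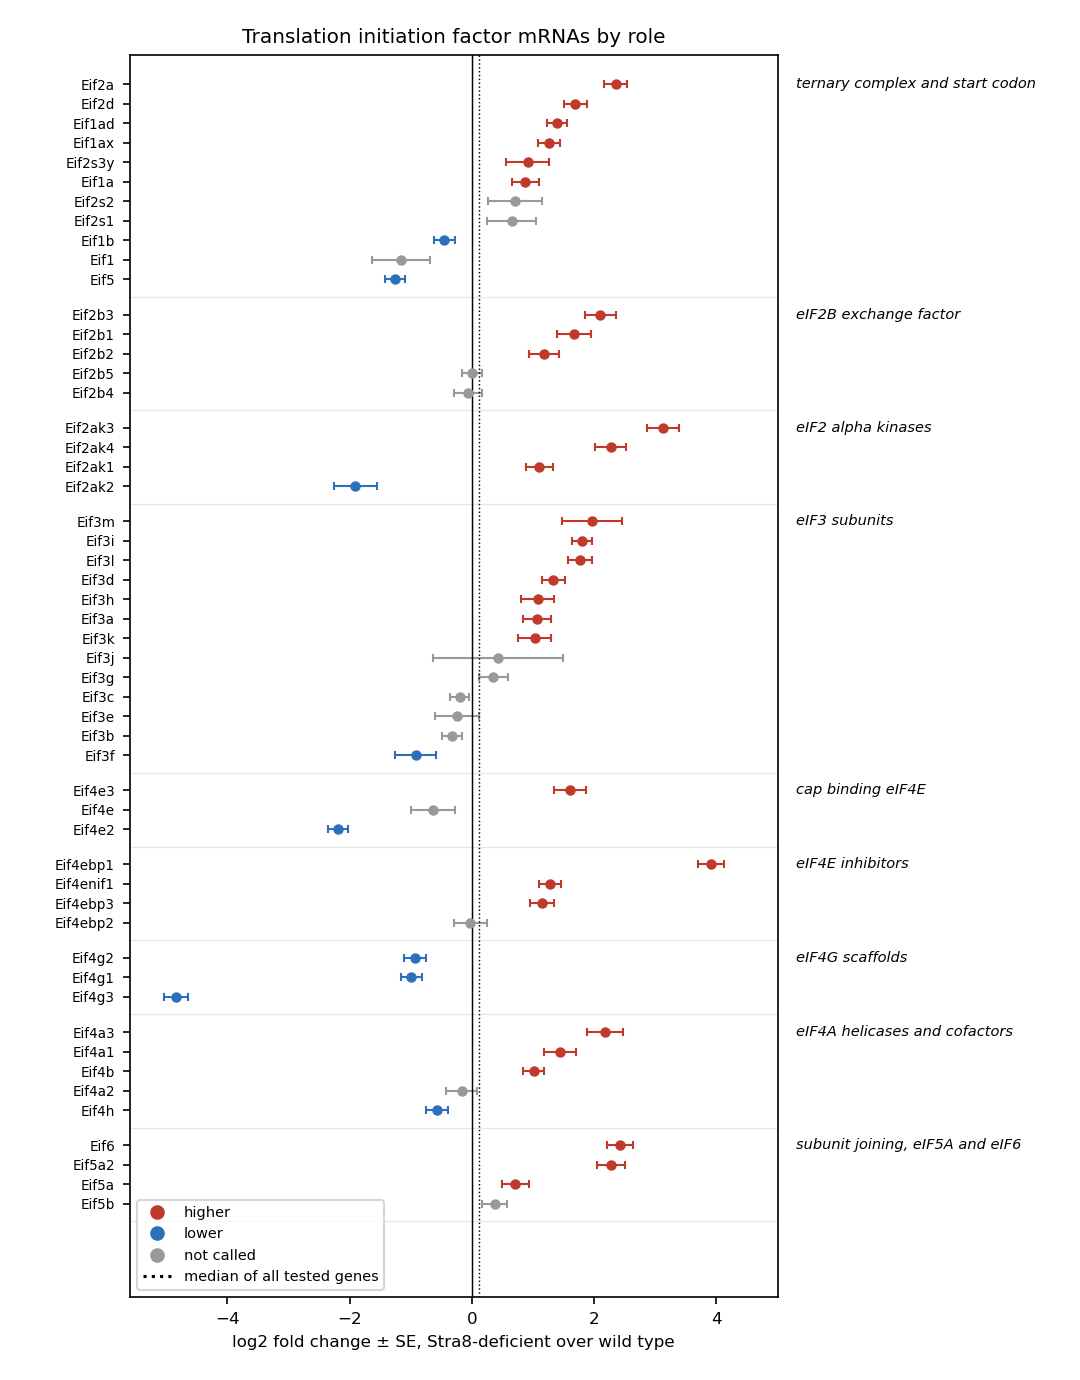
Log2 fold change with its standard error (x axis, Stra8-deficient over wild type) for each of the 52 tested members, grouped by role, with calls in red (29 higher), blue (9 lower) and grey (14 not called). All 3 eIF4G scaffolds lie left of 0, while 7 of 13 eIF3 subunits and 3 of 4 eIF2 alpha kinases are higher. Of all tested genes 39.0% were called higher and 36.7% lower.

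Promoter sequence is shown for 5 members that moved in either direction, chosen with and without motif matches, to set beside the values that follow. RefSeq promoters (GRCm38.p6) were matched for 42 of the 54 members. For each gene the most upstream listed start was used, and other starts were not searched. The 250 bases before that start were searched on both strands for 4 motifs: the E-box CACGTG, the cyclic AMP response element TGACGTCA, the CCAAT box and the ETS site CCGGAAGT. The last 150 of those bases are given 5′ to 3′, on the plus strand that each of these genes is read from, with motif letters of either strand in capitals. Eif4g3 (chr4:137993305-137993454) and Eif4e2 (chr1:87213761-87213910), the members that fell furthest, hold none of the 4 motifs in the window. Eif4g1 (chr16:20672577-20672726) holds an E-box. Eif2ak3 (chr6:70844365-70844514) holds CCAAT boxes and Eif5a2 (chr3:28781127-28781276) holds E-boxes, a CCAAT box and an ETS site, and both of these rose. Eif2a and Eif2ak4, which rose as far as Eif5a2 or further, hold none of the 4 motifs.
Eif4g3: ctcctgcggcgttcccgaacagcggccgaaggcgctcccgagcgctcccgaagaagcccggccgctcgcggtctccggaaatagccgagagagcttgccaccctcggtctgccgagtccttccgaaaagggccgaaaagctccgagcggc
Eif4e2: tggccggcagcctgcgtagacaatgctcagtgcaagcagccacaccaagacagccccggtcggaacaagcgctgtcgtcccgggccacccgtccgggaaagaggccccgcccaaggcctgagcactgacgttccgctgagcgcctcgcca
Eif4g1: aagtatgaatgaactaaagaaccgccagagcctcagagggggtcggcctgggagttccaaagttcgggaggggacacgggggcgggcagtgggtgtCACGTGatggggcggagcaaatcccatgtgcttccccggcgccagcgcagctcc
Eif2ak3: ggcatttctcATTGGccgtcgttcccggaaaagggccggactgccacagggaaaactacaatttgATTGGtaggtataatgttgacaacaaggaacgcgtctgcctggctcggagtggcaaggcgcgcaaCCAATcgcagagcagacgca
Eif5a2: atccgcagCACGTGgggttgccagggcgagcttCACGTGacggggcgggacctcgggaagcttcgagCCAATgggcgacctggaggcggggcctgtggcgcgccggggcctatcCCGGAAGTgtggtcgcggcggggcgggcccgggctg
Over the matched members the E-box was present in 7 of 42 promoters, a share of 16.7%, beside 6.04% of 27025 promoters in the RefSeq table. Those 7 were Eif1b, Eif3f, Eif4g1 and Eif4h, 4 of the 8 matched members called lower, and Eif3k, Eif4a1 and Eif5a2, 3 of the 21 matched members called higher. The 4 lower members with an E-box each lost their call under at least 1 alternative, among them scaling by library size alone, and of the 4 lower members that kept their call under all alternatives 0 hold an E-box. The CCAAT box was in 28.6% of member promoters and 34.5% of all, the ETS site in 7.14% and 2.92%, and the cyclic AMP response element in 0 of 42 and 1.6% of all. No motif contains another. The RefSeq promoters set beside the members were not limited to tested genes or matched to them for base content. A match describes letters in the window alone.

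The eIF4G scaffolds were the role group in which every member fell, where 36.7% of all tested genes were called lower. Eif4g3 (chromosome 4), a scaffold known in mice to be needed for spermatocytes to complete meiosis, fell furthest of all members. It stood at 36.3, 31.4 and 32.0 CPM in Stra8-deficient libraries, against 914, 924 and 1020 CPM in wild-type libraries. The Stra8-deficient libraries lay close together and far below each wild-type library. The level was 28.6-fold lower, or -4.84 ± 0.19 on the log2 scale (SE, edgeR adjusted p = 6.49e-08). Eif4g1, the general scaffold that joins eIF4E to eIF3, stood at 409, 322 and 335 CPM in Stra8-deficient libraries, against 726, 717 and 678 CPM in wild type. It was called lower at -0.99 ± 0.17 on the log2 scale (edgeR adjusted p = 0.000635). Eif4g2, a relative without the eIF4E-binding part that serves cap-independent initiation, stood at 546, 684 and 508 CPM, against 1086, 1161 and 1067 CPM in wild type, a log2 fold change of -0.93 ± 0.18 (edgeR adjusted p = 0.00131). With library size alone the calls of Eif4g1 and Eif4g2 were lost, at log2 fold changes of -0.37 and -0.31, while Eif4g3 stayed called at -4.22.

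A ratio of family members within a library does not depend on scaling, and it was compared over 13 pairs of paralogs chosen by family. Eif4g3 over Eif4g1 had log2 ratios of CPM of -3.48, -3.35 and -3.38 in Stra8-deficient libraries, against 0.33, 0.37 and 0.59 in wild-type libraries. The ranges were wide apart, with a difference of -3.83 (two-sided exact permutation p = 0.1, the smallest possible; 0.162 adjusted over 13 pairs). Per kilobase of exon, Eif4g3 made up 2.78% ± 0.249 of eIF4G reads in Stra8-deficient testes and 29.5% ± 1.96 in wild type (SD over 3 libraries each). The Eif4g2 over Eif4g1 ratio overlapped between genotypes, at 0.42, 1.09 and 0.60 in Stra8-deficient libraries, against 0.58, 0.70 and 0.65 in wild type. Of the 13 pairs 8 did not overlap, 2 above and 6 below wild type. Among single tested genes 80.2% did not overlap between the genotypes. Ratios of other gene pairs were not computed, so 8 of 13 is not shown to be more than other pairs would give. Each of the 8 paralog pairs without overlap reached the same smallest p of 0.1 by exact permutation, and none passes 0.05 after adjustment.

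Cap-binding proteins went different ways. Eif4e2 (chromosome 1), a relative of eIF4E that binds the cap and is mostly known as a repressor, fell. Its level was 71.9, 74.3 and 81.7 CPM in Stra8-deficient libraries, against 350, 339 and 352 CPM in wild type. The groups were tight and far apart, at a log2 fold change of -2.19 ± 0.16 (4.57-fold lower, edgeR adjusted p = 2.24e-06). Eif4e3 (chromosome 6), a cap-binding relative with a weaker grip, rose. It had 15.7, 20.1 and 17.5 CPM in Stra8-deficient libraries, against 5.62, 6.92 and 4.95 CPM in wild type, a log2 fold change of 1.60 ± 0.26 (edgeR adjusted p = 0.00044). All Stra8-deficient values of Eif4e3 exceeded all wild-type values. Eif4e, the main cap-binding protein, stood at 3.61, 5.81 and 8.37 CPM in Stra8-deficient libraries, against 7.49, 10.6 and 9.54 CPM in wild type. Its ranges overlapped and it was not called (log2 fold change -0.63 ± 0.36, edgeR adjusted p = 0.145), though without the third Stra8-deficient library it was called lower at -0.97 (edgeR adjusted p = 0.027). Eif4e1b, an eIF4E relative known from oocytes, had 0, 0 and 1 reads in Stra8-deficient libraries, against 2, 1 and 0 reads in wild type, too few to test. The ratio of read rates was 0.178, with a 95% counting interval of 0.0034 to 2.22, which covers counting error alone.

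Within the family the make-up therefore differed by genotype. Per kilobase of exon, Eif4e3 made up 38.8% ± 3.21 of the Eif4e, Eif4e2 and Eif4e3 reads in Stra8-deficient testes and 4.63% ± 0.829 in wild-type testes, while Eif4e2 made up 55.9% ± 3.02 and 92.3% ± 1.2 (SD, n = 3 each). The 3 genes together stood at 18.2 ± 1.54 RPKM in Stra8-deficient and 50.2 ± 0.383 RPKM in wild-type testes. The shares thus follow the fall of Eif4e2 as well as the rise of Eif4e3. Of the 36-base stretches of Eif4e3 13.5% also occur in other genes. The log2 ratio of Eif4e3 over Eif4e differed by 2.25 and that of Eif4e2 over Eif4e by -1.51, both without overlap (exact permutation p = 0.1 each, n = 3 per genotype).

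**Figure D3:**
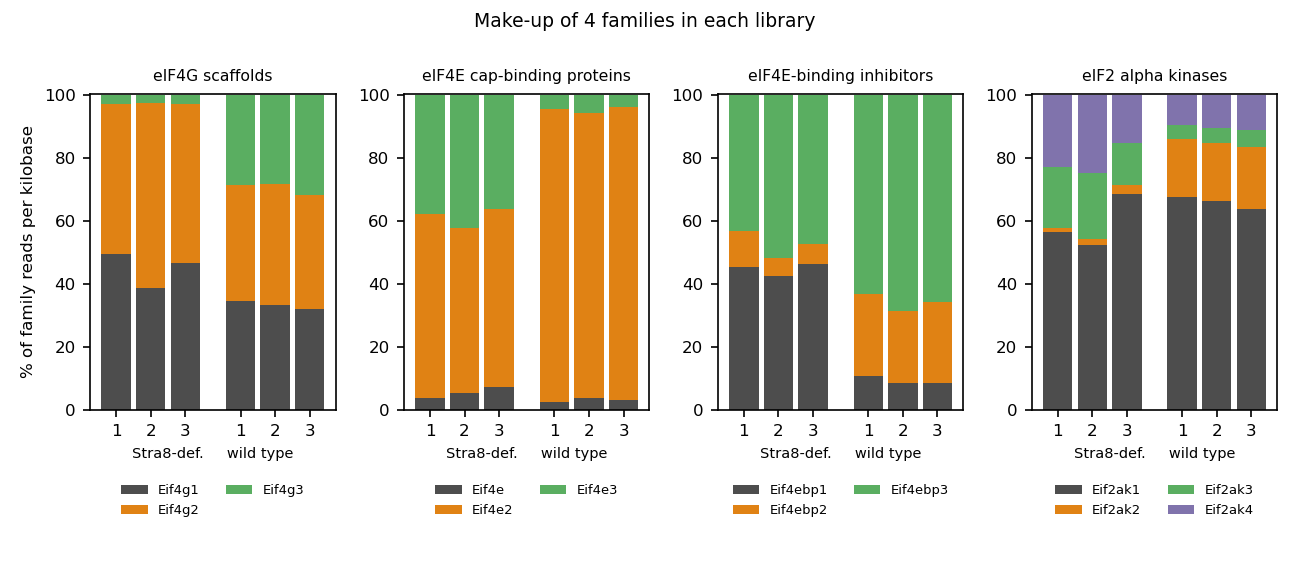
Share of each family's reads per kilobase of exon (y axis, %) held by each member, with a bar per library (x axis, replicates 1 to 3 of Stra8-deficient, then of wild type). Eif4g3 holds 2.49% to 2.93% of eIF4G reads in Stra8-deficient libraries and 28.2% to 31.8% in wild type, and Eif4e3 holds 36.1% to 42.4% against 3.9% to 5.53% of eIF4E reads.

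The eIF4E-binding inhibitors held the largest rise of all members. Eif4ebp1 (chromosome 8), which binds eIF4E and keeps it from eIF4G until mTOR phosphorylates it, had 110, 92.3 and 131 CPM in Stra8-deficient libraries, against 8.28, 6.64 and 7.15 CPM in wild type. The 3 Stra8-deficient libraries were far above the 3 wild-type ones. The fold change was 15.1, or 3.91 ± 0.22 on the log2 scale (edgeR adjusted p = 4.34e-07). Its relative Eif4ebp3 had 35.4, 38.1 and 45.3 CPM in Stra8-deficient libraries, against 16.6, 18.2 and 18.9 CPM in wild type, and was called higher at a log2 fold change of 1.15 ± 0.20 (edgeR adjusted p = 0.000551). Of its 36-base stretches 66.2% also occur in another annotated protein-coding gene, so its level is uncertain. Eif4ebp2 stood at 72.4, 34.0 and 48.6 CPM, against 53.1, 47.6 and 57.4 CPM in wild type, with overlap and no call at -0.03 ± 0.27. The log2 ratio of Eif4ebp2 over Eif4ebp1 was -0.60, -1.44 and -1.42 in Stra8-deficient libraries, against 2.65, 2.80 and 2.97 in wild type. That ratio changed sign between the genotypes: Eif4ebp1 had more CPM than Eif4ebp2 in each Stra8-deficient library and fewer in each wild-type one. Per kilobase of exon, Eif4ebp1 made up 44.7% ± 2.01 of the reads of the 3 inhibitors in Stra8-deficient testes and 9.2% ± 1.3 in wild type. Eif4ebp3 had the larger mean share in both, at 47.4% ± 4.21 and 65.9% ± 2.65, and in Stra8-deficient testes the 2 lie within their spread. These shares rest on the short exon length of Eif4ebp3 (0.744 kilobases) and on its shared stretches. The eIF4E transporter Eif4enif1, which carries eIF4E to the nucleus and to cytoplasmic granules, was called higher at 1.28 ± 0.18.

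The kinases of eIF2 alpha each sense a different stress, and all 4 were called, 3 higher and 1 lower. Over all tested genes 75.8% were called, 39.0% higher and 36.7% lower. Eif2ak3 (PERK, chromosome 6), which senses unfolded proteins in the endoplasmic reticulum, had 52.7, 84.9 and 52.3 CPM in Stra8-deficient libraries, against 6.87, 7.34 and 7.52 CPM in wild type. The second Stra8-deficient library was the highest, and all 3 were far above wild type, with a log2 fold change of 3.12 ± 0.26 (8.72-fold, edgeR adjusted p = 5.54e-06). Eif2ak4 (GCN2), which senses uncharged tRNA when amino acids run short, had 76.8, 124 and 71.3 CPM, against 17.6, 19.5 and 19.4 CPM in wild type, a log2 fold change of 2.27 ± 0.25. Eif2ak1 (HRI), which senses a lack of heme, was called higher at 1.10 ± 0.22. Eif2ak2 (PKR, chromosome 17), the interferon-induced kinase that senses double-stranded RNA, went the other way. It had 3.41, 6.19 and 9.18 CPM in Stra8-deficient libraries, against 23.4, 23.9 and 23.8 CPM in wild type. The wild-type values were nearly equal and the Stra8-deficient values spread widely below them (log2 fold change -1.91 ± 0.35, edgeR adjusted p = 0.00082). Per kilobase of exon, Eif2ak2 made up 2.03% ± 0.699 of the kinases' reads in Stra8-deficient testes and 18.9% ± 0.789 in wild type, and Eif2ak3 made up 18.0% ± 3.87 and 4.91% ± 0.369 (SD, n = 3 each).

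eIF2B, the exchange factor on which eIF2 phosphorylation acts, split into subunits that rose and subunits near 0. Eif2b3, a subunit of the catalytic part, had 81.1, 54.7 and 102 CPM in Stra8-deficient libraries, against 19.4, 16.8 and 19.1 CPM in wild type. All Stra8-deficient libraries were above wild type, and the last of them was highest (log2 fold change 2.10 ± 0.25, edgeR adjusted p = 5.65e-05). The regulatory subunits Eif2b1 and Eif2b2 were called higher at log2 fold changes of 1.67 ± 0.28 and 1.18 ± 0.25. Eif2b4, another regulatory subunit, and Eif2b5, the catalytic subunit, were not called, at -0.07 ± 0.23 and 0.00 ± 0.16. Eif2b5 had 150, 129 and 158 CPM in Stra8-deficient libraries, against 146, 157 and 135 CPM in wild type, so that the ranges lay over each other. Of the 5 subunits of this one complex 3 were called and 2 were not, a difference among subunits that no test compared. That share of 60% stands beside 75.8% called among all tested genes.

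**Figure D4:**
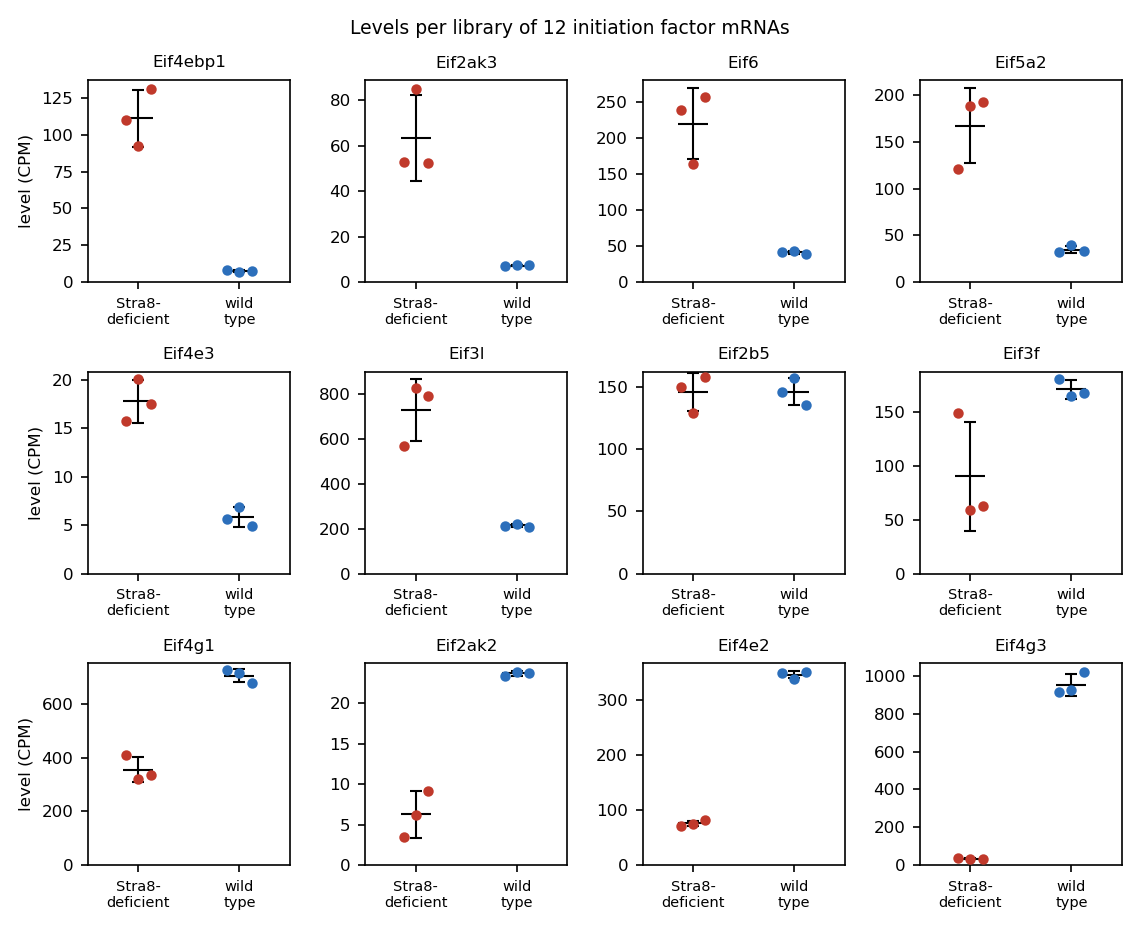
Level (y axis, TMM-scaled CPM on a linear scale from 0) of 12 members in each library, with red points for the 3 Stra8-deficient and blue points for the 3 wild-type libraries, black bars for the mean and whiskers for the SD. Eif2b5 overlaps between genotypes, while Eif4ebp1 (92.3 to 131 against 6.64 to 8.28 CPM) and Eif4g3 (31.4 to 36.3 against 914 to 1020 CPM) lie far apart.

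Among the genes of the ternary complex and start-codon selection, 6 of 11 tested were called higher and 2 lower. With 72.7% called (54.5% higher, 18.2% lower), a call was about as common as over all tested genes, at 75.8% (39.0% higher, 36.7% lower). Eif2a (chromosome 3), a factor separate from eIF2 that can bring initiator tRNA to the ribosome, had 80.8, 89.4 and 109 CPM in Stra8-deficient libraries, against 19.7, 18.2 and 16.7 CPM in wild type. The groups were well apart (log2 fold change 2.35 ± 0.19, edgeR adjusted p = 5.02e-06). Eif2d, which can also deliver tRNA and acts in recycling, was called higher at 1.69 ± 0.19. Eif1ad, a gene with an eIF1A-like domain, was called higher at 1.39 ± 0.17, and 14.25% of its stretches also occur in other genes, chiefly Banf1. Eif5 (chromosome 12), which makes eIF2 hydrolyse its GTP when the start codon is found, fell. It had 85.9, 111 and 87.6 CPM in Stra8-deficient libraries, against 222, 240 and 220 CPM in wild type, and no library overlapped (log2 fold change -1.26 ± 0.17, edgeR adjusted p = 0.000134).

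The scanning factors eIF1A and eIF1 each have a pair of genes. Eif1a had 88.7, 117 and 151 CPM in Stra8-deficient libraries, against 57.9, 64.4 and 72.8 CPM in wild type. X-linked Eif1ax had 126, 112 and 155 CPM, against 53.1, 57.3 and 53.4 CPM in wild type. Both were called higher, at 0.87 ± 0.22 and 1.26 ± 0.18. Their log2 ratio differed by -0.40, without overlap (exact permutation p = 0.1, n = 3 per genotype). Eif1b was called lower at -0.45 ± 0.17 (edgeR adjusted p = 0.0362) but stood at 0.17 with library size alone. Its call was also lost without the third Stra8-deficient library or any wild-type library (log2 fold changes of -0.55 to -0.36 with a library left out). Upper-quartile factors (-0.17), no filter on low counts (-0.43) and a replicate block (-0.46) lost it too. The authors' deposited edgeR table does not call Eif1b either (adjusted p = 0.186). Eif1 was not called at -1.16 ± 0.48, with the wild-type libraries themselves spread from 7.34 to 24.4 CPM. It was called lower with RLE factors (-1.29), with DESeq2 (-1.30), without the third Stra8-deficient library (-1.66) and without the third wild-type library (-1.54), and has an adjusted p of 0.0058 in the authors' deposited table. Of Eif1 stretches 21.9% also occur in other genes.

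eIF2 itself has an alpha, a beta and a gamma subunit. Eif2s1, the alpha subunit that the kinases phosphorylate, was not called at 0.65 ± 0.40, and without the third Stra8-deficient library the value was 0.01. Eif2s2, the beta subunit, was not called at 0.71 ± 0.44, but was called higher without the first Stra8-deficient library (1.06). With library size alone both were called higher, at 1.25 for Eif2s1 and 1.32 for Eif2s2. The gamma subunit has an X-linked and a Y-linked gene. Eif2s3y, the Y-linked copy that spermatogonia of mice need in order to proliferate, had 39.9, 102 and 90.3 CPM in Stra8-deficient libraries, against 31.2, 39.7 and 52.8 CPM in wild type. It was called higher at 0.91 ± 0.35 (edgeR adjusted p = 0.038) although the first Stra8-deficient library lay inside the wild-type range. The call was lost without the second or the third Stra8-deficient library or the first or second wild-type library, over a span of 0.61 to 1.19 with a library left out. RLE factors (0.78) lost the call of Eif2s3y too. Eif2s3x had 8, 33 and 67 reads, against 5, 1 and 1 reads in wild type, and did not pass the filter on low counts. Its read rate was 8.26 times higher in Stra8-deficient libraries, with a 95% counting interval of 3.87 to 21. Of the wild-type reads 5 lie in the first library, whose level of 0.781 CPM is close to the 0.803 CPM of the first Stra8-deficient library. Without that wild-type library the ratio was 19.1 (5.17 to 160), and without the third Stra8-deficient library 5.42 (2.41 to 14.3). Of its stretches 35.2% also occur elsewhere, mostly in a processed pseudogene.

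Of the 13 subunits of eIF3, which bridges the mRNA and the small ribosomal subunit, 7 were called higher, 1 lower and 5 were not called. The share called was 61.5% (53.8% higher, 7.69% lower), beside 75.8% of all tested genes (39.0% higher, 36.7% lower). Called higher were Eif3a, Eif3d, Eif3h, Eif3i, Eif3k, Eif3l and Eif3m, at log2 fold changes between 1.03 and 1.96. In Stra8-deficient libraries Eif3h had 105, 122 and 217 CPM and Eif3k 290, 270 and 539 CPM, so the third was highest for both. With a library left out, log2 fold changes ran from 0.68 to 1.24 for Eif3h and from 0.63 to 1.16 for Eif3k, and both stayed called. Stretches that also occur in other genes make up 39.2% of Eif3d (chiefly an antisense gene), 26.8% of Eif3h and 25.5% of Eif3m (chiefly processed pseudogenes). Eif3l, the eIF3 mRNA with the highest level in Stra8-deficient testes, had 571, 827 and 791 CPM, against 213, 222 and 208 CPM in wild type (log2 fold change 1.77 ± 0.20, edgeR adjusted p = 3.44e-05). Eif3i had 243, 207 and 223 CPM, against 68.1, 67.8 and 57.8 CPM in wild type (1.80 ± 0.17). The groups were far apart for both. Eif3m rose furthest, at 9.13, 10.8 and 24.6 CPM, against 5.93, 2.97 and 2.57 CPM in wild type (1.96 ± 0.49, edgeR adjusted p = 0.0051), but it was highest in the third Stra8-deficient library, and without it the log2 fold change was 1.36.

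Eif3f fell, at 149, 59.3 and 62.8 CPM in Stra8-deficient libraries, against 181, 165 and 168 CPM in wild type (log2 fold change -0.92 ± 0.34, edgeR adjusted p = 0.0315). The first Stra8-deficient library stood near wild type and the other two well below it. Leaving out that library gave -1.52 and kept the call, while leaving out any other library lost it. The call was also lost with library size alone (-0.29) and with upper-quartile factors (-0.64). Eif3b and Eif3c, large subunits of the core, were not called at -0.33 ± 0.16 and -0.20 ± 0.16, although their Stra8-deficient values lay below the wild-type ones, and with library size alone the values were 0.29 and 0.42, the value of Eif3c then being called higher. Eif3b was called lower at -0.45 with RLE factors and with DESeq2, and at -0.38 without the first Stra8-deficient library. Eif3e and Eif3g were not called either, at -0.24 ± 0.36 and 0.35 ± 0.24. Eif3j had 27, 46 and 0 reads in Stra8-deficient libraries, against 9, 10 and 13 reads in wild type. Reads of the third Stra8-deficient library were counted on another gene list of 23285 symbols (22055 in each of the other files), and 52.9% of the stretches of Eif3j also occur in other genes, chiefly the near-identical copy Eif3j2. The value of Eif3j is therefore uncertain.

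The helicase eIF4A and its cofactors came in related copies. Eif4a3 (chromosome 11), the helicase at the core of the exon junction complex, had 46.0, 44.2 and 82.2 CPM in Stra8-deficient libraries, against 11.9, 14.3 and 11.7 CPM in wild type. Each Stra8-deficient value was above each wild-type value (log2 fold change 2.18 ± 0.29, edgeR adjusted p = 0.000101). Eif4a1, the general helicase, had 23.4, 16 and 22.4 CPM, against 8.12, 6.78 and 7.89 CPM in wild type, and was called higher at 1.44 ± 0.26 (edgeR adjusted p = 0.000713). Eif4a2, its close paralog, had 56.5, 82.6 and 40.5 CPM, against 74.5, 68.8 and 58.0 CPM in wild type, with overlap and no call at -0.17 ± 0.26. The log2 ratio of Eif4a2 over Eif4a1 was 1.26, 2.35 and 0.85 in Stra8-deficient libraries, against 3.16, 3.30 and 2.84 in wild type, a difference of -1.61 without overlap (exact permutation p = 0.1). Processed pseudogenes or other genes share 30.4% of the stretches of Eif4a1, 17.7% of those of Eif4a2 and 26.7% of those of Eif4a3. Eif4b, an RNA-binding cofactor, was called higher at 1.01 ± 0.17. Its relative Eif4h had 273, 227 and 201 CPM, against 366, 355 and 323 CPM in wild type, and was called lower at -0.57 ± 0.18 (edgeR adjusted p = 0.0151). With library size alone (0.05) and with upper-quartile factors (-0.3) the call of Eif4h was lost. It was also lost without the first or second wild-type library (-0.73 to -0.49 with a library left out).

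Late in initiation the large subunit joins. Eif6 (chromosome 2), which keeps the large subunit from joining too early and helps to build it, had 239, 164 and 256 CPM in Stra8-deficient libraries, against 42.0, 42.6 and 38.3 CPM in wild type. The groups were far apart (log2 fold change 2.42 ± 0.21, edgeR adjusted p = 7.25e-06). Eif5a2, a second eIF5A gene whose protein helps ribosomes along difficult stretches and carries the modified residue hypusine, had 121, 188 and 193 CPM, against 32.0, 39.3 and 32.7 CPM in wild type. It was called higher at 2.27 ± 0.23 (edgeR adjusted p = 1.74e-05). Eif5a, the general gene, had 214, 147 and 229 CPM, against 125, 139 and 97.6 CPM in wild type, a smaller log2 fold change of 0.71 ± 0.22 (edgeR adjusted p = 0.0162). Without the first or the third wild-type library Eif5a lost its call, at 0.56 to 0.84 with a library left out. Eif5a2 made up 29.1% ± 8.32 of eIF5A reads per kilobase in Stra8-deficient testes and 12.1% ± 1.45 in wild type (SD, n = 3 each). The log2 ratio of the pair differed by 1.54 without overlap. Eif5b, the GTPase of subunit joining, was not called at 0.37 ± 0.21.

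Stra8-deficient libraries varied more among themselves. Among the 52 tested members the coefficient of variation of CPM had a median of 22.2% over Stra8-deficient libraries and 7.6% over wild-type libraries, and it was larger in the Stra8-deficient group for 45 of 52. Over 40% variation was seen for 12 members in the Stra8-deficient group and for 2 in the wild-type group. Over all genes the biological coefficient of variation that edgeR estimated came to 38.2% for the Stra8-deficient group and 7.46% for the wild-type group, so the wider spread in Stra8-deficient libraries was seen over all genes too.

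Genes that work with the initiation factors, listed by role, were called as often as all genes: 33 higher and 17 lower of 66 tested (68 listed), or 75.8%. Among 26 tested initiation partners, 13 rose and 8 fell (80.8% called, beside 75.8% of all tested genes). Bzw2, an eIF5-like protein, rose with a log2 fold change of 3.94 ± 0.30, and Ddx3x, an X-linked RNA helicase, rose by 3.11 ± 0.20. Pabpc2, a poly(A)-binding protein gene active in the male germ line, had 6, 3 and 2 reads in Stra8-deficient libraries, against 7319, 8762 and 7094 reads in wild type. That made a log2 fold change of -11.86 ± 0.40 (edgeR adjusted p = 2.86e-08), and of -12.53 without the first Stra8-deficient library. The genes named in the next 3 sentences, other than by the rule, were chosen after their values were seen. Pabpc6 and Pabpc1, further poly(A)-binding proteins, fell at log2 fold changes of -8.95 ± 0.26 and -2.89 ± 0.22. D1Pas1, an autosomal relative of Ddx3x expressed in spermatogenic cells, fell at -3.39 ± 0.20, whereas the Y-linked Ddx3y rose at 1.63 ± 0.41. Larp1, which binds the 5′ end of ribosomal protein mRNAs, fell at -3.14 ± 0.24.

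Of 14 tested genes that signal to initiation, 7 rose and 3 fell (71.4% called, beside 75.8% of all tested genes). Rps6ka3, an S6 kinase of the RSK family, rose at a log2 fold change of 2.50 ± 0.20 and its relative Rps6ka1 fell at -1.05 ± 0.19. Rheb, the GTPase that switches mTOR on, rose at 2.21 ± 0.22. Of 13 tested genes of the response to eIF2 phosphorylation, 7 rose and 4 fell (84.6% called). Trib3 and Atf3 rose at 5.22 ± 0.39 and 6.00 ± 0.63. Atf3, a stress-induced transcription factor, had 15.0, 9.72 and 18.2 CPM in Stra8-deficient libraries, against 0.468, 0.141 and 0 CPM in wild type, so its size rests on few wild-type reads and was 7.27 without the first wild-type library. Ddit3, a transcription factor of the same response, fell at -1.67 ± 0.23, so that genes of this list moved both ways. Atf4, whose mRNA is translated when eIF2 is phosphorylated, and Ppp1r15a, which brings a phosphatase back to eIF2, rose at 1.47 ± 0.20 and 3.59 ± 0.33. Both were also chosen after their values were seen. Of the rest of this list, Asns, Sesn2 and Gcn1l1 fell at -1.33 ± 0.26, -1.29 ± 0.42 and -1.58 ± 0.19. Nupr1, Ppp1r15b and Impact rose at 3.33 ± 0.64, 0.85 ± 0.19 and 0.86 ± 0.27, and Chac1 and Dnajc3 were not called.

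Of 13 tested elongation and termination genes, 6 rose and 2 fell (61.5% called, beside 75.8% of all tested genes). Eef1e1, an eEF1-related protein of the tRNA synthetase complex, and Eef2k, the kinase that inhibits the elongation factor eEF2, rose at 2.17 ± 0.24 and 2.07 ± 0.21. Eef1g, a subunit of the eEF1 exchange factor, fell at -2.06 ± 0.44. Dhps and Dohh, the enzymes that make the hypusine of eIF5A, rose at 1.89 ± 0.23 and 1.79 ± 0.19 and were chosen after their values were seen.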

How the data were processed

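Whole-testis polyadenylated RNA of 3 Stra8-deficient and 3 wild-type mice was analysed from deposited counts. TopHat, HTSeq, edgeR and the mm9 build are named per the submitters' processing notes. The sources used here do not give tool versions, settings, strand handling or read length. Each deposited count file holds whole, unscaled read numbers by gene symbol. HTSeq's rows for reads outside genes (20.9% to 34.5% of reads per library) entered neither library sizes nor tests. A counter of non-unique alignments is listed in 4 files and is 0 there. The third Stra8-deficient file lists 1499 symbols that the others lack and lacks 269 of theirs, so 21786 shared symbols were used. In the authors' deposited table, log2 ratios had the same sign as here for 52 of 52 members, and its deposited p-value column, corrected for false discovery, calls 30 of 54 higher and 8 lower. Unlike here, that edgeR column calls Eif1 lower (adjusted p = 0.0058) and Eif2s3x higher (3.96e-06). It does not call Eif1b (0.186) or Eif4h (0.0855), which were called lower here.

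Genes were filtered with edgeR's filterByExpr (15018 kept), scaled by TMM (factors 1.21 to 1.27 for the Stra8-deficient group, 0.796 to 0.813 for the wild-type group) and tested by genotype with the quasi-likelihood F test of edgeR (edgeR 4.0.16, limma 3.58.1, R 4.3.3; glmQLFit with robust estimation), with Benjamini-Hochberg adjustment and a threshold of 0.05. Standard errors are the size of the log2 fold change over the square root of F. Log2 CPM for ratios used a prior count of 2. Depth of 6733128 to 12425689 gene reads makes 3 counts worth 0.201 to 0.55 CPM. The counting intervals are exact (95%). Intervals and this limit cover counting error only, because reads carry no molecular identifiers. Per the series' design text, the 3 libraries of a genotype come from 3 males. Chromosomes, exon lengths (union of exons) and the share of 36-base stretches found in other genes come from GENCODE M21 (GRCm38), matched by symbol for 54 of 54 members.

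The members, the gene lists, the motifs and the tests were chosen with earlier results of these data known. Values in every library are given for the called member of each role with the largest rise and fall, for members with 3 or fewer reads in a genotype and for pairs of paralogs that do not overlap; other members are described by choice. From each pathway list the 2 largest changes in the main direction and the 1 in the other were named. Alternatives were RLE, upper-quartile and library-size scaling, no filter, DESeq2 (1.42.0), a replicate block, a prior count of 0.5 and each library left out. Leaving libraries out of the read-rate ratios was added after seeing the data.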

Additional observations from a re-analysis of the deposited data

How the results depend on the processing

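Of the 38 members called, 31 stayed called in the same direction under all 12 alternatives, 27 of them higher and 4 lower (Eif2ak2, Eif4e2, Eif4g3 and Eif5). The other 7, each lost under at least 1 alternative, were Eif1b, Eif2s3y, Eif3f, Eif4g1, Eif4g2, Eif4h and Eif5a. Members called numbered 34 to 41 with a library left out, 28 to 31 higher and 6 to 11 lower, and 37 to 40 under the other alternatives, beside 65.0% to 77.3% of all genes called when library size alone is left aside. Members called lower numbered 4 with library size alone and 11 with DESeq2 and with RLE. Members not called gained a call as follows: with RLE and with DESeq2 Eif1 and Eif3b; with library size alone Eif2b5, Eif2s1, Eif2s2, Eif3c, Eif3g (0.96) and Eif5b (0.99); with upper-quartile factors Eif3g (0.62) and Eif5b (0.65); without the first Stra8-deficient library Eif2s2 and Eif3b; without the second Eif3g (0.50); without the third Eif1, Eif2b4, Eif3e (-0.72) and Eif4e; and without the third wild-type library Eif1. Scaling by library size alone turned the sign of the log2 fold change of 9 members, to 0.17 for Eif1b, 0.54 for Eif2b4, 0.61 for Eif2b5, 0.29 for Eif3b, 0.42 for Eif3c, 0.36 for Eif3e, 0.45 for Eif4a2, 0.59 for Eif4ebp2 and 0.05 for Eif4h. Under upper-quartile factors it turned for 6: 0.20 for Eif2b4, 0.27 for Eif2b5, 0.08 for Eif3c, 0.03 for Eif3e, 0.11 for Eif4a2 and 0.25 for Eif4ebp2. Those factors move all genes together, by construction. Without the low-count filter Eif2b5 stood at 0.02. With a library left out, log2 fold changes crossed 0 for Eif2b4 (-0.39 to 0.06), Eif2b5 (-0.07 to 0.04), Eif3j (-0.47 to 1.04), Eif4a2 (-0.51 to 0.05) and Eif4ebp2 (-0.38 to 0.16), as did the ratio of Eif4g2 over Eif4g1 (-0.13 to 0.20); the cause was not tested. The replicate block gave 37 members called, 29 higher and 8 lower, losing Eif1b, and turned Eif3j to -0.09. Deviations of same-numbered libraries correlated at 0.06, 0.08 and -0.04 over genes, so no clear pairing by replicate number was seen. With 3 libraries per genotype this cannot show that there is none. The first and second Stra8-deficient libraries correlated best with the wild-type library of their own number, and the third did not. Pathway genes called numbered 43 to 54 under all alternatives, beside 50. Depth limits Eif4e1b, Eif2s3x and Eif3j, which rest on few reads.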
